A study of Homo sapiens with 6 samples.

Results

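The genes described here are 10 core parts of the TGF-beta pathway, namely the ligands TGFB1, TGFB2 and TGFB3, the receptors TGFBR1, TGFBR2 and TGFBR3, and the signal transducers SMAD2, SMAD3, SMAD4 and SMAD7. They were taken by symbol from the 60612 gene identifiers of the series, and all 10 were found. The set was chosen by the lower TGFB2 FPKM seen in Sh-YAP1 in an earlier analysis of the same libraries, so the TGFB2 difference is given as a description with no test, and the other 9 genes are read from a fit over all genes. RNA came from MDA-MB-231, an established human triple-negative breast cancer cell line, untreated and sampled at the time labelled day 3. There were 3 Sh-NC libraries, labelled WT in genotype and stably expressing a control short hairpin RNA, and 3 Sh-YAP1 libraries, stably expressing a hairpin against YAP1. Each condition is 1 hairpin group of 1 cell line, and the labels do not say whether the replicates were separate cultures, so p-values measure only the spread between these libraries.

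Expression is in FPKM, which divides the fragments read from a transcript by its length and by the total number of fragments mapped. This scale is per length, so levels of different genes can be compared. The value of a gene is the sum of its transcript rows, and fold changes are differences of mean log2(FPKM + 1), which understate the change of low genes. The values come without counts, so library depth is unknown and counting error cannot be given. Where 3 values of a group are listed, they follow the replicate numbers 1, 2 and 3. YAP1, the targeted gene, averaged 25.7 ± 2.66 FPKM in the control and 2.87 ± 0.42 FPKM in the knockdown (SD, n = 3 each). VIM, the mesenchymal filament gene that marks this line, was at 1645 to 2303 FPKM, while the hormone receptor genes ESR1 and PGR stayed at or below 0.07 and 0.01 FPKM and the epithelial cadherin CDH1 at or below 0.49 FPKM. The other luminal and epithelial markers read were detected, ERBB2 at 14.3 to 18.1 FPKM and EPCAM at 2.43 to 3.27 FPKM. The simple epithelial keratin genes KRT8 and KRT18 were at 126 to 164 FPKM and 99.9 to 126 FPKM, and KRT18 was lower in every Sh-YAP1 library than in any Sh-NC library. Of 6 markers of immune, endothelial and erythroid cells, 3 were at or below 0.05 FPKM in every library, and the 6 summed to 1.26 to 3.93 FPKM in Sh-NC and 1.23 to 2.50 FPKM in Sh-YAP1.

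TGF-beta ligands are secreted in a latent form, bound to their own propeptide and to latent TGF-beta binding proteins in the matrix, and must be released to signal. A free ligand binds the type II receptor TGFBR2, which recruits and phosphorylates the type I receptor TGFBR1. TGFBR3, also called betaglycan, is a co-receptor that is known above all for presenting the TGFB2 ligand, which binds the type II receptor weakly by itself. The activated receptors phosphorylate SMAD2 and SMAD3, which join SMAD4 and enter the nucleus, while SMAD7 is an inhibitor that the pathway itself induces. In breast cancer the pathway is known for restraining the growth of early lesions and for favouring invasion and spread of advanced ones. YAP1 is a transcriptional co-activator that reaches DNA through TEAD factors.

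In Sh-NC the 10 genes spanned a wide range of levels. TGFBR2 was highest at a mean of 120.4 FPKM, followed by SMAD3 at 47.8, TGFB1 at 39.5 and TGFB2 at 12.8 FPKM, and the Sh-NC libraries of these neighbours in the order did not overlap. TGFBR3 (8.39), SMAD2 (6.77) and TGFBR1 (6.42 FPKM) overlapped and could not be ordered. SMAD4 stood at 3.37 FPKM, and TGFB3 (1.52) and SMAD7 (1.15 FPKM) were lowest and overlapped each other. All 10 genes reached the 0.5 FPKM mean that a gene needed to be tested.

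**Figure D1:**
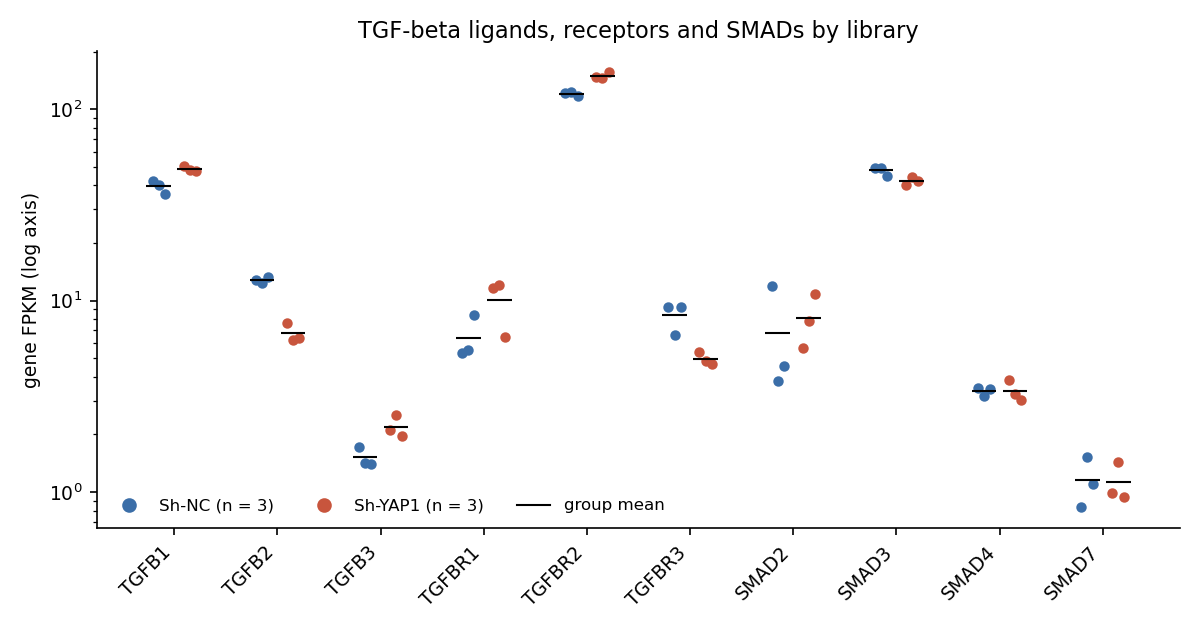
Gene FPKM on a log axis for the 10 genes, with 1 point per library, 3 Sh-NC libraries in blue, 3 Sh-YAP1 libraries in red and the group mean as a line. TGFB2, TGFBR3 and, by a small margin, SMAD3 lay lower in every Sh-YAP1 library than in any Sh-NC library, and TGFB1, TGFB3 and TGFBR2 higher.

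TGFB2, the gene around which the set was chosen, was lower in Sh-YAP1. TGFB2 (ENSG00000092969) lies on the plus strand of chromosome 1, from 218346235 to 218444619 in GENCODE 29 on GRCh38. Its level was 12.9, 12.4 and 13.3 FPKM across the Sh-NC libraries and 7.6, 6.21 and 6.42 FPKM across the Sh-YAP1 libraries. The highest Sh-YAP1 library was therefore well below the lowest Sh-NC library. The means were 12.8 ± 0.44 and 6.74 ± 0.75 FPKM (SD, n = 3 each), a ratio of 0.53. The difference of mean log2(FPKM + 1) was -0.84. In bulk RNA, fewer cells expressing a gene and less RNA per cell cannot be told apart.

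The promoter windows of RefSeq are shown for TGFB2, for its co-receptor gene TGFBR3 and for the main ligand gene TGFB1, each of which has a single window. TGFBR3 and TGFB1 did not pass the test, as given with their values. Each run is the 250 bases before the RefSeq start, 5′ to 3′ on the strand of the gene, on GRCh38.p14. Capitals mark matches on either strand to GGAATG, the core of the TEAD site, to CAGAC, a SMAD box, or to TGANTCA, the AP-1 site, and no matches overlapped in these runs. The windows are chr1:218345086-218345335 (plus) for TGFB2, chr1:91886152-91886401 (minus) for TGFBR3 and chr19:41353923-41354172 (minus) for TGFB1.
TGFB2: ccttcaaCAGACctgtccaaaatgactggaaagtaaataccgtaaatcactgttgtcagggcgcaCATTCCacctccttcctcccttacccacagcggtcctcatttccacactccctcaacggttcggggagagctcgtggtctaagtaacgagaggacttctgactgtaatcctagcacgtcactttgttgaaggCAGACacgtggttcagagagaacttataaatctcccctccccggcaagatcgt
TGFBR3: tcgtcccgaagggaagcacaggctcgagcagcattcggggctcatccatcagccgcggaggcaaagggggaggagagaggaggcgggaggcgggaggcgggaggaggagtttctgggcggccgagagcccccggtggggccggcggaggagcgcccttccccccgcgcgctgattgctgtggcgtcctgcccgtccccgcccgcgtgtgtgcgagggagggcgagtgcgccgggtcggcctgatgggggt
TGFB1: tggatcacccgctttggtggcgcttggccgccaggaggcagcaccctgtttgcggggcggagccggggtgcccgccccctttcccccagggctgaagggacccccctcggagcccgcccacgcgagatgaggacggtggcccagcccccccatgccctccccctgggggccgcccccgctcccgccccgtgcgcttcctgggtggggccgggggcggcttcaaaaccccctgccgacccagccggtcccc

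The TGFB2 window held 1 TEAD match, on the reverse strand 185 bases before the RefSeq start, and 2 SMAD matches, 243 and 53 bases before it. The windows of TGFBR3 and TGFB1 held none of the 3 motifs. Over all 26 windows listed for the 10 genes, 2 held a TEAD match, 10 a SMAD match and 1 an AP-1 match. Of the 35116 windows in the RefSeq table, scanned over the same 250 bases before the start, 11.9% held GGAATG, 38.0% held CAGAC and 6.57% held TGANTCA. A match is a run of letters, and binding was not measured here. The RefSeq starts differ from the gene starts of GENCODE 29. That of TGFB2, at 218345336, lies upstream of the annotated gene, and that of TGFBR3, at 91886151, lies inside it, since this minus-strand gene begins at 91906335, so that the TGFBR3 window does not lie at the annotated start of the gene.

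The TGFB2 total rested mostly on 1 of its 4 transcript rows, which held 88.5% of the mean. That row was at 11.9, 11.2 and 10.6 FPKM across the Sh-NC libraries and at 7.15, 5.85 and 5.29 FPKM across the Sh-YAP1 libraries. It was lower in every Sh-YAP1 library, as the gene total was. The next row, with 6.11% of the mean, ranged from 0.66 to 0.97 FPKM in Sh-NC and from 0.02 to 1.09 FPKM in Sh-YAP1, so its groups overlapped. TGFB2-OT1, a non-coding RNA annotated on the same strand within the TGFB2 span, was at 0.12, 6.97 and 8.74 FPKM across the Sh-NC libraries and at 0.11 to 0.13 FPKM in Sh-YAP1. Its part in the TGFB2 value was not tested.

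TGFB1, the most abundant of the ligands, was at 42.2, 40.1 and 36.2 FPKM across the Sh-NC libraries and at 50.8, 48.0 and 47.7 FPKM across the Sh-YAP1 libraries. Every Sh-YAP1 library was above every Sh-NC library. The means were 39.5 ± 3.05 and 48.8 ± 1.68 FPKM (SD, n = 3 each), so the log2 fold change was 0.30 (standard error 0.08, 95% interval 0.11 to 0.49). The adjusted p of 0.0955 from limma with Benjamini-Hochberg adjustment did not pass 0.05. TGFB1 lies on the minus strand of chromosome 19 from 41301587 to 41353911, and its leading row held 94.9% of its mean. HNRNPUL1, which overlaps it on the opposite strand, was at 162 to 171 FPKM over the 6 libraries. Also on that strand, CCDC97 was at 14 to 16.1 FPKM, and TMEM91 was at 0.6 to 1.13 FPKM in Sh-NC and 1.2 to 1.65 FPKM in Sh-YAP1, higher in every Sh-YAP1 library as TGFB1 was. Their part in the TGFB1 value was not tested, and whether the counting used strand is not given in the sources used here.

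TGFB3 was the scarcest ligand. It was at 1.73, 1.42 and 1.4 FPKM across the Sh-NC libraries and at 2.1, 2.52 and 1.96 FPKM across the Sh-YAP1 libraries. The groups did not overlap, and the log2 fold change of 0.34 (standard error 0.11) had an adjusted p of 0.151 (limma, Benjamini-Hochberg). The leading TGFB3 row, with 56.4% of the mean, did overlap. It was at 1.24, 1.01 and 0.55 FPKM across the Sh-NC libraries and at 1.71, 0 and 1.77 FPKM across the Sh-YAP1 libraries. IFT43, a ciliary transport gene that overlaps TGFB3 on the opposite strand, was at 8.75 to 9.88 FPKM in Sh-NC and 10.5 to 11.8 FPKM in Sh-YAP1. Like TGFB3 it was higher in every Sh-YAP1 library, and its part in the TGFB3 value was not tested.

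Added together, the 3 ligands came to 56.8, 53.9 and 50.9 FPKM across the Sh-NC libraries and to 60.5, 56.8 and 56.1 FPKM across the Sh-YAP1 libraries. The ligand sums of the groups overlapped. The shares and the ratio contain the TGFB2 values that chose the set, so they are given with no test and as no result of their own, and TGFB1 itself did not pass. TGFB2 made up 23.9% ± 1.88 of the ligand FPKM in Sh-NC and 11.7% ± 0.84 in Sh-YAP1 (SD, n = 3 each). TGFB1 made up 73.3% ± 1.83 and 84.5% ± 0.55 in turn. The ratio of TGFB1 to TGFB2 was 2.73 to 3.28 in Sh-NC and 6.68 to 7.74 in Sh-YAP1.

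**Figure D2:**
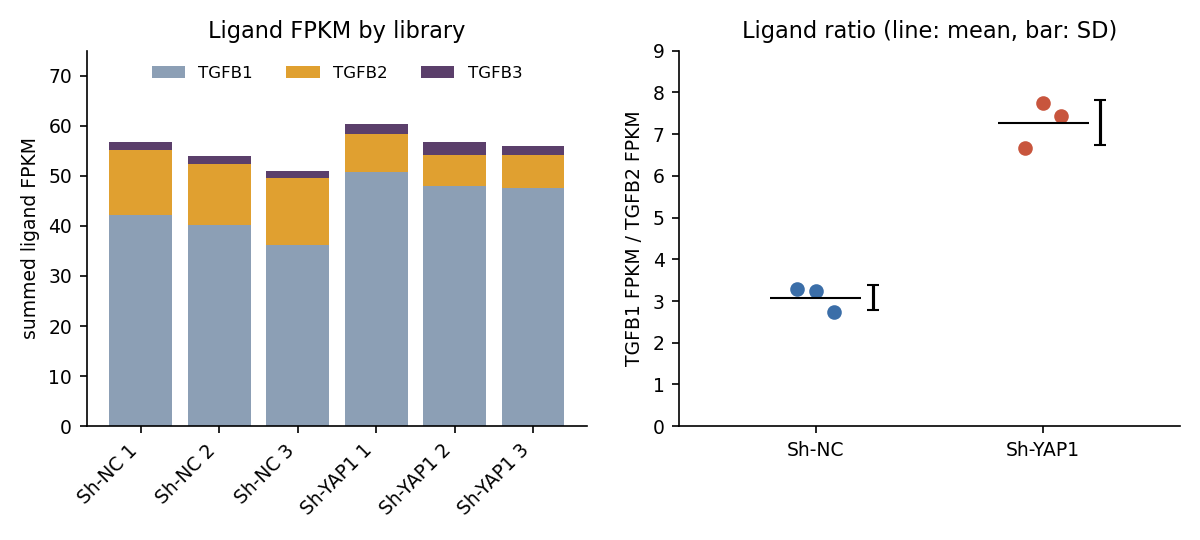
Left, FPKM of TGFB1, TGFB2 and TGFB3 stacked for each of the 6 libraries; right, the ratio of TGFB1 to TGFB2 FPKM with 1 point per library, the group mean as a line and the SD as a bar (n = 3 each). The stacks reach 50.9 to 60.5 FPKM in all libraries, while the ratio is 2.73 to 3.28 in Sh-NC and 6.68 to 7.74 in Sh-YAP1.

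None of the 3 receptor genes passed the adjusted threshold (limma), and 2 of them, TGFBR2 and TGFBR3, had an unadjusted p under 0.05. TGFBR2, the type II receptor that binds the ligand (chromosome 3, 30606502 to 30694142, plus strand), was at 121.5, 122.9 and 116.9 FPKM across the Sh-NC libraries. The Sh-YAP1 libraries gave 147.6, 145 and 155.5 FPKM. All Sh-YAP1 libraries were above all Sh-NC libraries. The log2 fold change was 0.31 (standard error 0.06, 95% interval 0.16 to 0.46), with an adjusted p of 0.0518 from limma with Benjamini-Hochberg adjustment. TGFBR2 passed 0.05 after quantile normalization (log2 fold change 0.38, adjusted p = 0.0237, limma) and with a filter of at least 1 FPKM (adjusted p = 0.0477, limma). It did not pass under the other 14 settings tried, and no other of the 9 genes read from the fit passed under any of the 16.

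The TGFBR2 value is the sum of 6 transcript rows, of which 4 passed the row filter. The leading row, with 78.5% of the mean, was at 97.3 to 98.9 FPKM in Sh-NC and at 103 to 122 FPKM in Sh-YAP1. A second row was at 13.5 to 15.4 FPKM in Sh-NC and 21.1 to 25 FPKM in Sh-YAP1, a log2 fold change of 0.62 with an unadjusted p of 0.00376 and an adjusted p of 0.466 (limma). A further row was at 14.9 FPKM in Sh-YAP1 replicate 2 and at or below 0.02 FPKM elsewhere, so that the total of this library drew on a row that the others did not use.

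TGFBR3, the betaglycan co-receptor (chromosome 1, 91680343 to 91906335, minus strand), was at 9.26, 6.61 and 9.3 FPKM across the Sh-NC libraries. It was at 5.37, 4.86 and 4.66 FPKM across the Sh-YAP1 libraries. The libraries of Sh-YAP1 were all lower, with the nearest pair 6.61 against 5.37 FPKM. The means were 8.39 ± 1.54 and 4.96 ± 0.37 FPKM (SD, n = 3 each), and the log2 fold change was -0.64 (standard error 0.14, 95% interval -0.98 to -0.31). Its adjusted p of 0.0628 (limma, Benjamini-Hochberg) did not pass 0.05. The leading TGFBR3 row, with 56.0% of the mean, was at 6.82, 3.69 and 6.22 FPKM across the Sh-NC libraries. Across the Sh-YAP1 libraries it was at 3.37, 0 and 2.34 FPKM. The next row was at 1.36 to 1.7 FPKM in Sh-NC and 1.02 to 3.19 FPKM in Sh-YAP1, so its groups overlapped. The lower total rested mainly on the leading row, where an exact 0 can be a failed estimate. The ratio of TGFB2 to TGFBR3 FPKM was 1.39 to 1.87 in Sh-NC and 1.28 to 1.42 in Sh-YAP1. This ratio contains the TGFB2 values that chose the set, so it is given with no test and as no result of its own.

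TGFBR1, the type I receptor kinase (chromosome 9, 99104038 to 99154192, plus strand), was at 5.32, 5.52 and 8.41 FPKM across the Sh-NC libraries and at 11.6, 12.1 and 6.43 FPKM across the Sh-YAP1 libraries. Sh-NC replicate 3 lay above Sh-YAP1 replicate 3, and the groups overlapped. The log2 fold change of 0.55 had a 95% interval of -0.07 to 1.18 and an adjusted p of 0.274 (limma, Benjamini-Hochberg). Its leading row was at 10.8 FPKM in Sh-YAP1 replicate 2 and at 1.48 to 3.58 FPKM in the other 5 libraries. TGFBR2 exceeded TGFBR1 by 13.9 to 22.8 times in Sh-NC and by 11.98 to 24.2 times in Sh-YAP1.

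**Figure D3:**
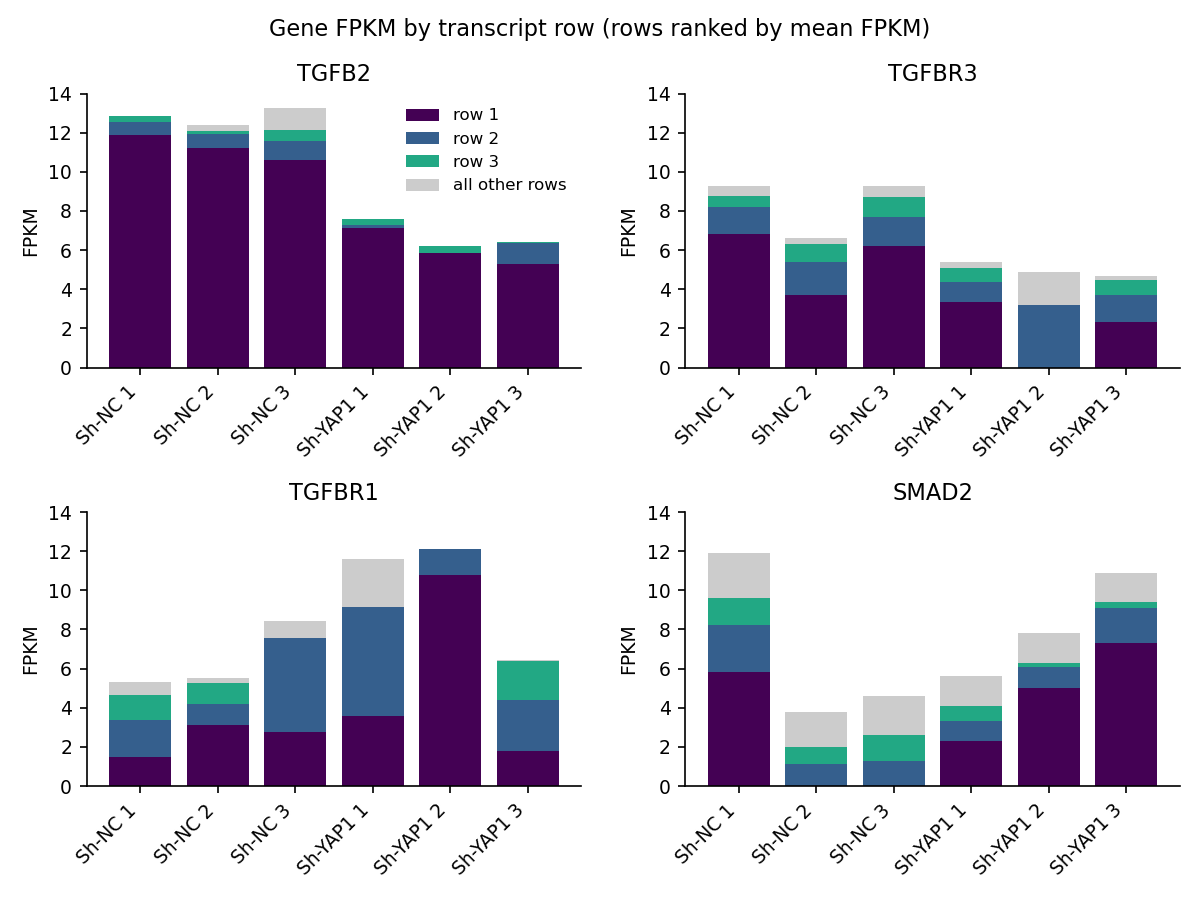
FPKM of TGFB2, TGFBR3, TGFBR1 and SMAD2 in each library, stacked by transcript row, with the 3 rows of highest mean in colour and all other rows in grey. One row carries TGFB2 in all 6 libraries, whereas the leading TGFBR3 row is listed at 0 in Sh-YAP1 replicate 2 and the leading SMAD2 row at 0 in Sh-NC replicates 2 and 3.

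Among the 4 SMAD genes read here, SMAD3 had the highest RNA level. SMAD3 (chromosome 15, 67063763 to 67195195, plus strand) was at 49.5, 49 and 45 FPKM across the Sh-NC libraries and at 40.2, 44.2 and 42.2 FPKM across the Sh-YAP1 libraries. The groups did not overlap, but they came close, at 45 against 44.2 FPKM. The log2 fold change was -0.18 (standard error 0.07, 95% interval -0.35 to -0.0022), with an adjusted p of 0.223 (limma, Benjamini-Hochberg).

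SMAD2 (chromosome 18, 47808957 to 47931146, minus strand) varied more within groups than between them. It was at 11.9, 3.81 and 4.58 FPKM across the Sh-NC libraries and at 5.63, 7.8 and 10.9 FPKM across the Sh-YAP1 libraries. Its log2 fold change of 0.33 had a 95% interval of -0.63 to 1.29 and an adjusted p of 0.676 (limma, Benjamini-Hochberg). The spread came with 1 row, which was at 5.82, 0 and 0 FPKM in Sh-NC and at 2.29, 5.02 and 7.29 FPKM in Sh-YAP1. An exact 0 in such values can be a failed estimate. Without this row, a setting added with the values in view, SMAD2 was at 6.09, 3.81 and 4.58 FPKM across the Sh-NC libraries and at 3.34, 2.78 and 3.57 FPKM across the Sh-YAP1 libraries. The groups then no longer overlapped and the sign turned, to a log2 fold change of -0.45 with an adjusted p of 0.175 (limma, Benjamini-Hochberg). The direction of SMAD2 therefore depended on 1 row. MTCO2P2, a pseudogene within the SMAD2 span on the same strand, was at 5.98 to 8.81 FPKM in Sh-NC and 6.3 to 10.8 FPKM in Sh-YAP1, and its part in the SMAD2 value was not tested.

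SMAD4, the shared partner of the receptor-activated SMADs (chromosome 18, 51028394 to 51085045, plus strand), was at 3.5, 3.16 and 3.44 FPKM across the Sh-NC libraries and at 3.84, 3.26 and 3.04 FPKM across the Sh-YAP1 libraries. Its groups overlapped fully, and the 95% interval of the log2 fold change was -0.24 to 0.25. SMAD7, the inhibitory SMAD (chromosome 18, 48919853 to 48952052, minus strand), was at 0.84, 1.52 and 1.1 FPKM across the Sh-NC libraries and at 0.99, 1.44 and 0.94 FPKM across the Sh-YAP1 libraries. Its groups overlapped as well, with a 95% interval of -0.40 to 0.37 on a scale that understates changes at such low levels.

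With TGFB2 left aside, 0 of the other 9 genes reached an adjusted p under 0.05 in limma with Benjamini-Hochberg adjustment, against 3.38% of the 14770 genes tested. At an unadjusted p under 0.05, 5 of the 9 passed, against 21.9% of all genes. In 5 of the 9 the groups did not overlap (TGFB1, TGFB3 and TGFBR2 higher, TGFBR3 and SMAD3 lower), against 29.4% of all genes. Exact two-sided permutation tests of the 6 values gave p = 0.1 for those 5 genes, which is the smallest p that 3 libraries against 3 can give. The median log2 fold change of the 9 was 0.30, beside -0.0014 over all genes tested. This median was not stable, at 0.0010 without the highest SMAD2 row, 0.10 without Sh-NC replicate 2, 0.17 without Sh-NC replicate 3 and 0.12 without Sh-YAP1 replicate 3. At the level of single rows, 0 of 47 rows belonging to these 9 genes passed after adjustment (limma), against 0.0515% of 77655 rows, and 3 had an unadjusted p under 0.05, against 6.12% of all rows.

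**Figure D4:**
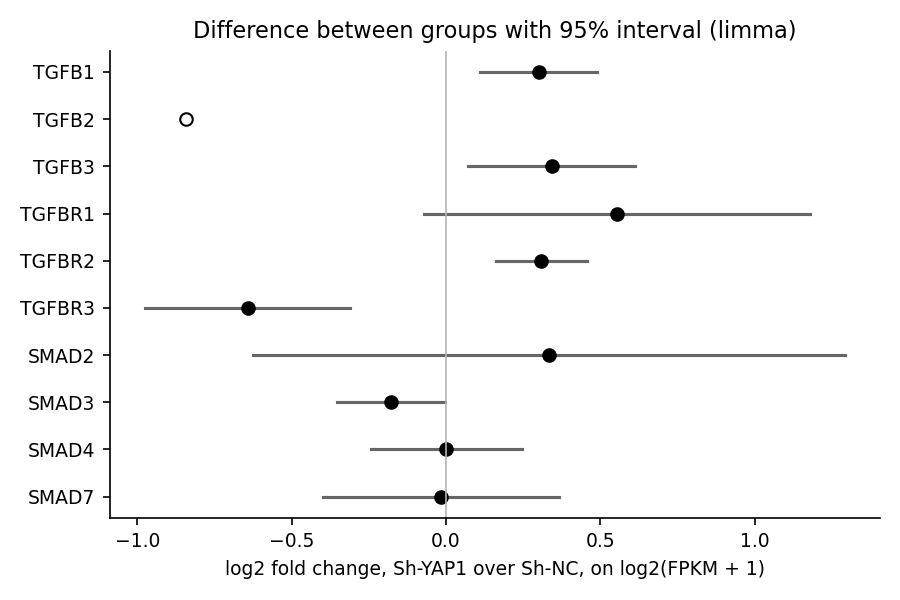
Log2 fold change of each of the 10 genes, Sh-YAP1 over Sh-NC, on log2(FPKM + 1), with the 95% interval from limma as a line. TGFB2 is drawn as an open point with no interval since its difference chose the set. The intervals of TGFB1, TGFB3, TGFBR2, TGFBR3 and SMAD3 leave out 0 before adjustment, and those of TGFBR1, SMAD2, SMAD4 and SMAD7 include it.

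The genes around these 10 were read from 5 lists of ligand activation, co-receptors, SMAD regulators, the activin branch and SMAD3 target genes. The lists were chosen with earlier results of these data known, so their counts are a description. The largest rise among genes that passed was in the latency step. LTBP1, which binds latent TGF-beta and tethers it to the matrix, rose from 4.93, 3.7 and 3.83 FPKM across the Sh-NC libraries to 11.1, 10 and 10.2 FPKM across the Sh-YAP1 libraries. Every Sh-YAP1 library was above every Sh-NC library, and the ratio of the means was 2.51. The difference of mean log2(FPKM + 1) was 1.15 ± 0.11 (standard error), with an adjusted p of 0.00978 (limma, Benjamini-Hochberg). When rows above 1 FPKM in a single library were left out, a setting added with the values in view, the LTBP1 log2 fold change was 1.73 with an adjusted p of 0.159 (limma). LTBP2 was also higher in every Sh-YAP1 library, at 1.9 to 2.36 FPKM in Sh-NC and 3.2 to 4.19 FPKM in Sh-YAP1. Its log2 fold change of 0.59 had an adjusted p of 0.0510 (limma), just short of the threshold. The other binding proteins LTBP3 and LTBP4 did not pass either, with log2 fold changes of -0.17 and -0.03. LTBP1 thus went from 13.0% ± 1.52 to 27.1% ± 0.80 of the summed FPKM of LTBP1 to LTBP4 (SD, n = 3 each).

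THBS1, a matrix protein able to activate latent TGF-beta, rose from 82.6 to 112 FPKM, a log2 fold change of 0.44 (adjusted p = 0.0245, limma with Benjamini-Hochberg adjustment). With any 1 of the 6 libraries left out, its adjusted p was 0.0538 to 0.092 (limma), so that its call rested on all 6. In the latency and activation list, 2 of 10 genes tested rose and 0 fell, with a median log2 fold change of 0.11. Over all genes, 1.75% rose and 1.62% fell. The furin protease gene FURIN, at 23.9 and 25.8 FPKM in Sh-NC and Sh-YAP1, and the integrin gene ITGB5, at 44.7 and 48.6 FPKM, did not pass. LRRC32 and ITGB6 were below the filter and were not tested.

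Co-receptors and SMAD regulators showed 0 calls, where 3.38% of all genes passed and 21.9% had an unadjusted p under 0.05, so that few or no calls would be the background share of lists this short. None of the 6 co-receptor and adaptor genes tested passed an adjusted p of 0.05 (limma), and 1, NRP1, had an unadjusted p under 0.05. NRP1, a co-receptor shared with other ligands, had means of 36.9 and 41.6 FPKM in Sh-NC and Sh-YAP1, and FKBP1A, which holds the type I receptor inactive, was at 186 and 193 FPKM. Likewise 0 of 16 SMAD regulators and partners passed (limma), and 1 had an unadjusted p under 0.05. That gene was STRAP, an adaptor that recruits SMAD7 to the receptor, at 58.2 and 45.2 FPKM (log2 fold change -0.36, adjusted p = 0.107, limma). The ubiquitin ligase gene NEDD4L was at 46.6 and 40.8 FPKM. The medians of both lists were 0.02 and -0.03.

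In the activin branch, which signals through the same SMAD2 and SMAD3, 1 of 7 genes tested fell and 0 rose, against 1.62% and 1.75% of all genes. It was FST, the secreted follistatin that traps activins, at 69.2, 65.3 and 64 FPKM across the Sh-NC libraries and at 32.6, 37.2 and 39 FPKM across the Sh-YAP1 libraries. The groups were far apart, with a log2 fold change of -0.85 ± 0.09 (standard error) and an adjusted p of 0.00978 (limma, Benjamini-Hochberg). INHBB, the activin subunit gene expressed here, averaged 25.9 ± 1.78 FPKM in the control and 24.6 ± 0.96 FPKM in the knockdown (SD, n = 3 each) and did not pass. FST exceeded INHBB by 2.47 to 2.67 times in Sh-NC and by 1.38 to 1.59 times in Sh-YAP1. The median of the list was -0.07.

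The SMAD3 target genes that passed went in both directions, and most of the list did not pass. Of 26 tested, 4 rose and 2 fell, where 1.75% of all genes rose and 1.62% fell, and the median log2 fold change was 0.01. ADAM19, a membrane metalloprotease gene, rose from 13.1, 12.3 and 10.4 FPKM across the Sh-NC libraries to 28.6, 25.3 and 24.1 FPKM across the Sh-YAP1 libraries. This was the largest rise of the list, with a log2 fold change of 1.07 ± 0.11 (standard error) and an adjusted p of 0.0109 (limma, Benjamini-Hochberg). PMEPA1, a feedback inhibitor that the pathway induces, rose from 6.61 to 11.1 FPKM (log2 fold change 0.67). TGFBI, a matrix protein named for its induction by TGF-beta, rose from 16.5 to 26.2 FPKM (log2 fold change 0.64). The transcription factor gene BHLHE40 rose from 30.9 to 41.5 FPKM, with an adjusted p of 0.0496 (limma), at the edge of the threshold.

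Against these, IL11, a cytokine gene induced by TGF-beta in this cell line, fell from 23.9 to 6.86 FPKM. CCN2, at 235 and 203 FPKM, was lower in every Sh-YAP1 library but did not pass (log2 fold change -0.21, adjusted p = 0.130, limma). The transglutaminase gene TGM2, at 124 and 114 FPKM, overlapped between the groups and did not pass either. The calls of PMEPA1, TGFBI and BHLHE40 were each lost with any 1 library left out, with adjusted p between 0.0522 and 0.146 (limma), while those of ADAM19, IL11, FST and LTBP1 held with each library left out.

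**Figure D5:**
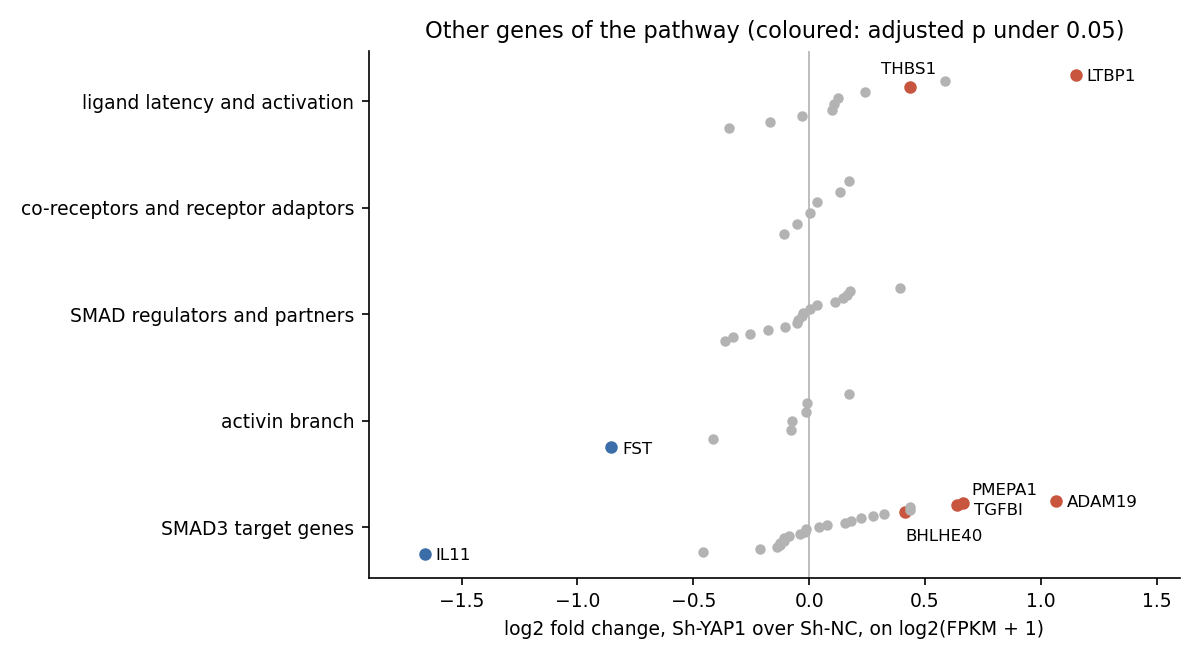
Log2 fold change, Sh-YAP1 over Sh-NC on log2(FPKM + 1), of the list genes tested, by list, with 1 point per gene and 1 gene left out. Coloured and named points have an adjusted p under 0.05 (red higher, blue lower in Sh-YAP1), grey points do not; LTBP1 and ADAM19 lie farthest to the right and IL11 farthest to the left.

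Over the 5 lists together, 9 of 65 genes tested passed (6 higher and 3 lower), against 3.38% of all genes, and 9 more genes of the 74 were below the filter. Since earlier results of these data were known when the lists were chosen, a share above that of all genes is no test of the pathway. With 1 library left out, 4 of the listed genes passed in each case, whichever library it was.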

How the data were processed

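The authors deposited FPKM values, with 2 decimals, in 1 file per library for 6 libraries (3 Sh-NC, 3 Sh-YAP1, day 3), each with 229420 transcript rows that carry a gene identifier. The submitters' processing notes name HISAT2 2.0, Bowtie 0.12.2 and hg19 without saying what each was used for, and the quantification tool, annotation and strand setting are not given in the sources used here. Rows were summed to 60612 genes, and symbols were matched by Ensembl identifier. Positions are from GENCODE 29 (GRCh38) and promoters from RefSeq (GRCh38.p14), since the files hold no coordinates. Genes averaging 0.5 FPKM or more, and rows averaging 0.1 FPKM or more, were compared as log2(FPKM + 1) with limma 3.58.1 in R 4.3.3 (lmFit, eBayes with trend, no covariates), and p-values were adjusted by Benjamini-Hochberg across every gene, or every row, in the fit. The code was tested on simulated data. Other steps used Python 3.11.15, pandas 2.3.3 and numpy 2.4.6. FPKM do not give depth, so count models were not used.

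Named genes were all 10 members, YAP1, from each list up to 6 genes past the threshold that averaged 1 FPKM or more and the 2 highest genes, and the 3 genes most correlated with TGFB2. FURIN, LTBP2, LTBP3, LTBP4, LRRC32, ITGB6, overlapping genes and marker genes were named beside these. The members and lists were chosen with earlier results of these data known. Alternatives covered the pseudocount, normalization, trend, filters, row sums, the replicate block and each library left out. The values of 1 list gene are not reported here, though it is in the counts.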

Additional observations from a re-analysis of the deposited data

How the results depend on the processing

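The log2 fold change of TGFB2 stayed between -0.93 and -0.79 over the 16 alternatives. The number of genes with an adjusted p under 0.05 (limma), 499 of all genes, was 232 with no filter, and with 1 library left out it was 80 to 170. The number of list genes passing, 9 in the main fit, was 6 with no filter, 11 with a filter of at least 1 FPKM and 4 with each library left out. For the 9 members other than TGFB2 the count of 0 became 1 (TGFBR2) after quantile normalization and with a filter of at least 1 FPKM. With the replicate block, 1 gene, 0 list genes and 0 member rows passed, while 2779 genes had an unadjusted p under 0.05. The block was not used because the numbers did not pair the libraries: taking each library as its difference from the group mean, libraries sharing a number correlated at -0.028, 0.062 and 0.0042, and 2 of 6 libraries correlated best with their own number. Signs turned only among genes that did not pass. SMAD4 was at -0.011 after quantile normalization and -0.033 with rows of at least 0.1 FPKM, and from -0.073 to 0.057 with 1 library left out. SMAD7 was at 0.031 with rows of at least 0.1 FPKM and from -0.12 to 0.10 with 1 library left out. FKBP1A ranged from -0.16 to 0.22 with 1 library left out. NEDD4L was at 0.047 without rows above 1 FPKM in a single library, and SMAD2 at -0.45 without its highest row, both settings added with the values in view. The causes were not tested. Depth is unknown, so it could not be said which low values were within sampling error.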

Other observations

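The 3 genes whose levels followed TGFB2 most closely over the 6 libraries, among genes averaging 1 FPKM or more, were LAYN, SURF2 and STK38, chosen by the Pearson coefficient on log2(FPKM + 1). As the libraries form 2 groups, such a likeness mainly restates the difference between the groups, and it is a description of 6 libraries with no test. LAYN, which encodes a hyaluronan receptor, was at 23.5, 22.3 and 24.3 FPKM across the Sh-NC libraries and at 15, 12.5 and 12.9 FPKM across the Sh-YAP1 libraries. Its order of libraries was that of TGFB2. STK38, a kinase of the NDR family, was at 22.4, 22.2 and 23 FPKM across the Sh-NC libraries and at 15.8, 13.6 and 14.4 FPKM across the Sh-YAP1 libraries. SURF2 was at 20.5 to 20.7 FPKM in Sh-NC and 17.6 to 18.4 FPKM in Sh-YAP1, a much smaller difference in the same order. Without rows above 1 FPKM in a single library, a setting added with the values in view, LAYN had a log2 fold change of -0.41 in place of -0.75.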
